A study of Mus musculus with 6 samples.

Results

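Purinergic receptors and ectonucleotidases are the cell-surface proteins that sense and degrade extracellular nucleotides, and 10 genes of this system were followed here in mouse peritoneal macrophages. They were picked by symbol and all 10 were found in the deposited table of 34745 gene models, each in 1 row. Of these, 3 encode P2X ion channels (P2rx1, P2rx4 and P2rx7), 5 encode P2Y G-protein-coupled receptors (P2ry2, P2ry6, P2ry12, P2ry13 and P2ry14) and 2 encode ectonucleotidases (Entpd1 and Nt5e). The macrophages came from the peritoneal cavity of C57BL/6 mice and were kept for 24 h in 0.1 mM R-2-hydroxyglutarate (R-2-HG) or in vehicle, with 3 libraries in each group, named here by group and replicate number. R-2-HG is the metabolite made by cancer-associated mutant forms of isocitrate dehydrogenase, and it inhibits enzymes that depend on 2-oxoglutarate. The labels name no genetic change in either group, and they do not say what a replicate is (another animal, culture or aliquot). The p-values below therefore describe the spread among these 6 libraries, which may be technical.

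ATP and other nucleotides leave cells that are stressed, damaged or stimulated. P2X receptors are cation channels opened by ATP, while P2Y receptors signal through G proteins after binding ATP, ADP, UTP, UDP or UDP-sugars. Entpd1 (CD39) takes phosphates off ATP and ADP, and Nt5e (CD73) turns the resulting AMP into adenosine, which acts on a separate family of receptors. In macrophages, opening of the P2X7 channel is a classical trigger of the NLRP3 inflammasome, and P2Y receptors are known for guiding migration and uptake of dying cells.

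Levels are given in FPKM, that is, fragment numbers divided by transcript length and by the library's mapped total. Counts do not come with this unit, so depth was worked out from genes with a single transcript, whose low values rise in steps of whole fragments. The estimates were 16340000, 13670000 and 14650000 fragments in R-2-HG libraries 1 to 3 and 15810000, 15490000 and 16600000 in vehicle libraries 1 to 3. Of the 8 listed macrophage markers, Lyz2, which encodes lysozyme, lay between 16924 and 23901 FPKM with R-2-HG and between 18428 and 21164 FPKM in vehicle libraries. Over all 6 libraries Cd68, Csf1r, Adgre1 and Itgam were each at 44.4 FPKM or more. Markers of the resident large peritoneal macrophage on that list were low, with means over the 6 libraries of 1.82 FPKM for Gata6, 1.25 FPKM for Icam2 and 0.623 FPKM for Timd4, below the means of the B cell gene Ighm (10.3 FPKM), the neutrophil gene S100a8 (11.9 FPKM) and the fibroblast gene Col1a1 (13.3 FPKM). The 5 listed markers of T and NK cells summed to between 0.308 and 1.17 FPKM with R-2-HG and between 0.379 and 3.15 FPKM in vehicle libraries, and the 4 of dendritic cells to at most 0.69 FPKM in R-2-HG libraries and 1.003 FPKM in vehicle libraries. The 5 mast cell markers summed to between 0.00527 and 2.27 FPKM in R-2-HG libraries, against 1.16 to 1.55 FPKM in vehicle libraries, and the 5 B cell markers to between 5.96 and 7.56 FPKM in R-2-HG libraries, against 5.82 to 34.0 FPKM in vehicle libraries. Sums of the 5 neutrophil markers lay between 11.2 and 17.9 FPKM with R-2-HG and between 10.1 and 16.9 FPKM in vehicle libraries. Of the eosinophil markers Epx and of the endothelial markers Emcn were listed at 0 in all 6 libraries, and these lists of 4 genes each summed to between 3.02 and 4.22 and between 1.17 and 2.07 FPKM in R-2-HG libraries, against 3.72 to 4.19 and 1.68 to 2.10 FPKM in vehicle libraries. The 5 fibroblast and mesothelial markers summed to between 3.08 and 55.8 FPKM in R-2-HG libraries, against 3.44 to 66.4 FPKM in vehicle libraries.

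The members fell into a well expressed set and a set of low FPKM, which is called barely detected here. P2ry6, P2rx4, Entpd1, P2rx7 and P2ry2 averaged between 7.75 and 39.1 FPKM over the 6 libraries, and P2ry14, P2ry13, Nt5e, P2rx1 and P2ry12 between 0.128 and 0.68 FPKM. A gap of 11.4-fold in mean FPKM separated P2ry2, the lowest of the first set, from P2ry14, the highest of the second. Testing required an average of 1 FPKM or more, so 5 of the 10 members were tested and 5 are given as values.

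The promoters of 2 members from each set are shown because they stand beside each other in the genome and on opposite sides of that gap. P2rx7 and P2rx4 are neighbours on chromosome 5, 16.1 kb apart with no coding gene between them, and both belong to the expressed set. P2ry13 and P2ry12 are neighbours on chromosome 3, 5.39 kb apart, and both belong to the barely detected set. Each line gives 150 bases before the annotated start, 5′ to 3′ on the gene's strand, from RefSeq (GRCm38.p6). The RefSeq start of P2ry12 lay 114 bases from the GENCODE start of the gene. The bases after it were not found in the GENCODE transcripts of P2ry12, so this window is uncertain. Capitals mark letters of the 3 motifs searched on both strands, which are GAGGAAG (a PU.1-type ETS motif), GGGCGG (the GC box) and TATAAA (the TATA box).
P2rx4, chr5:122707394-122707543, plus strand: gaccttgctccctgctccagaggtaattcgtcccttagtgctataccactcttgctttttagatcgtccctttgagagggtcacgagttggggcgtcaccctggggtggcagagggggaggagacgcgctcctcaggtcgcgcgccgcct
P2rx7, chr5:122643777-122643926, plus strand: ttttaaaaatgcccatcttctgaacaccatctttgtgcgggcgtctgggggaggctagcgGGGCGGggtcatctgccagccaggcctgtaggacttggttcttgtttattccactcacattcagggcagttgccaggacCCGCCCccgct
P2ry12, chr3:59262986-59263135, minus strand: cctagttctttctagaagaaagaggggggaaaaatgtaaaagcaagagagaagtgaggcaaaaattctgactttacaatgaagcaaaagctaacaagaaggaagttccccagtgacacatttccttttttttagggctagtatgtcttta
P2ry13, chr3:59210883-59211032, minus strand: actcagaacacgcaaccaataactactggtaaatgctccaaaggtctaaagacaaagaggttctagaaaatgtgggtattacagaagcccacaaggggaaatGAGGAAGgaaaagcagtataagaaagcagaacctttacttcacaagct
The GC box occurred at 2 positions in the P2rx7 window and at none in the P2rx4 window, against a match in 28.6% of 32851 promoter windows of the same length. The PU.1-type motif occurred once in the P2ry13 window and in none of the other 3 shown, against 6.85% of all windows, and no TATA motif was found in the 4 (7.57% of all windows). Of the 10 members, 9 had an entry, and the expressed P2ry6 had none. Among the 5 windows not shown, P2ry14 also held 1 PU.1-type match, P2ry2 and Nt5e held 2 GC boxes each, and P2rx1 and Entpd1 held none of the 3 motifs. The GC box thus occurred in both sets. The PU.1-type motif occurred only in P2ry13 and P2ry14 of the barely detected set, and the other members of that set held none. Neither motif therefore fully parted the sets, and P2ry6 is missing from the expressed one. The windows of P2rx4 and P2rx7 held 10 and 6 CpG dinucleotides, those of P2ry12 and P2ry13 0 and 1, and the median over all windows was 4. Of the others, Entpd1 had 14, P2ry2 13, Nt5e 12, P2rx1 3 and P2ry14 2 CpG, so that the barely detected Nt5e stood with the expressed members. The RefSeq starts used for P2ry2 and Nt5e lay 813 and 412 bases from the GENCODE starts. For P2ry2 the bases after the start were not found in its GENCODE transcripts either. These matches describe letters in the windows and nothing about binding.

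None of the 5 tested members was called as changed with R-2-HG. Of 9701 genes tested with limma on log2(FPKM + 1), 0 had a Benjamini-Hochberg adjusted p under 0.05 (0% called), and 140 had an unadjusted p under 0.05. Among the 5 tested members the count was 0 by either measure, with unadjusted p between 0.37 and 0.83 and an adjusted p of 0.99998 for each. The groups overlapped for all 5, while over all genes tested the 3 libraries of one group lay wholly above those of the other in 455 (4.69%). P2rx7 alone of the 5 had a higher mean with R-2-HG and the other 4 had lower means, and their median log2 change was -0.06 beside -0.004 over all genes tested. The sign held for P2rx7 and P2rx4 whichever library was left out, and turned positive for the other 3, with Entpd1 at 0.074 without vehicle library 2, P2ry2 at 0.016 without vehicle library 3 and P2ry6 at 0.067 without vehicle library 1. For all 5, both ends of the 95% interval were less than 1 unit from 0 on the log2(FPKM + 1) scale, as they were for 94.6% of all genes tested. The SEs, intervals and p-values given for each tested member come from a fit that ignores the replicate number. A fit that took up the number as a block gave smaller SEs, from 0.068 for P2ry6 to 0.12 for P2rx7, and called 0 members. It gave 329 genes at an unadjusted p under 0.05, against 140 without the block. Both counts are a smaller share of the 9701 genes than 0.05, so the lack of calls does not show a lack of change. In bulk RNA, fewer cells of a type and less RNA per cell cannot be told apart.

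**Figure D1:**
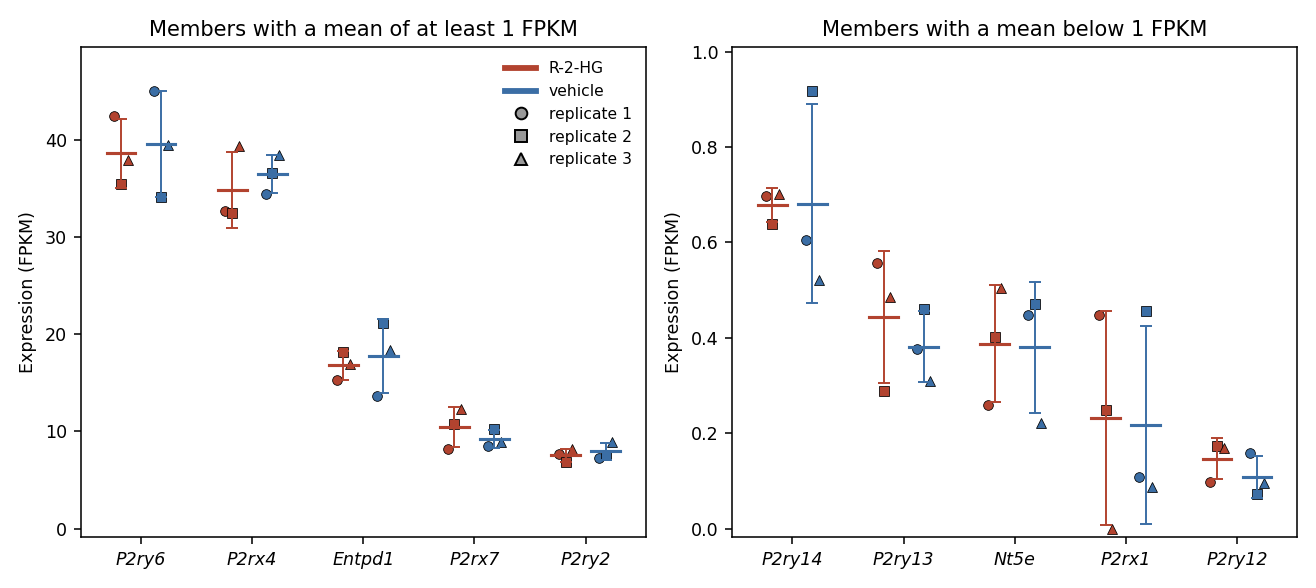
FPKM of the 10 members in each library, R-2-HG in red and vehicle in blue, with bars at the group mean ± SD (n = 3) and a symbol for each replicate number. The left panel holds the 5 members with a mean of at least 1 FPKM and the right panel, on its own scale, the 5 below it; the red and blue points overlap for every member.

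Among the ion channels, P2rx4 was the most abundant. P2rx4, a channel known for its slow desensitisation and its place in lysosomal membranes (ENSMUSG00000029470, chromosome 5, 122707544 to 122729738, plus strand, GRCm38), stood at 32.7, 32.5 and 39.4 FPKM in R-2-HG libraries 1 to 3 and at 34.5, 36.7 and 38.4 FPKM in vehicle libraries 1 to 3. R-2-HG library 3 was the highest of all 6 and the other 2 R-2-HG libraries were the lowest, so the groups overlapped. The log2 change was -0.07 (SE 0.11, 95% interval -0.33 to 0.19, limma adjusted p = 0.99998). The residual SD of P2rx4 on the log2 scale, 0.121, was at the 21.6 percentile of all genes tested, and its mean FPKM at the 89.8 percentile.

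P2rx7 had the largest change of the 5 tested members, and it did not pass. P2rx7, the channel with a low affinity for ATP that can open a large pore (ENSMUSG00000029468, chromosome 5, 122643911 to 122691432, plus strand), stood at 8.21, 10.8 and 12.3 FPKM in R-2-HG libraries 1 to 3 and at 8.46, 10.2 and 8.92 FPKM in vehicle libraries 1 to 3. R-2-HG libraries 2 and 3 lay above all vehicle libraries, and R-2-HG library 1 lay below all of them. The log2 change was 0.15 (SE 0.16, 95% interval -0.22 to 0.52, limma adjusted p = 0.99998), and it ran from 0.03 without R-2-HG library 3 to 0.30 without R-2-HG library 1. Exons of P2rx7 overlap those of the microRNA gene Mir8115 on the same strand.

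P2rx1, the fast-desensitising channel best known from platelets and smooth muscle (ENSMUSG00000020787, chromosome 11, 72999103 to 73015200, plus strand), was barely detected. It stood at 0.447, 0.249 and 0 FPKM in R-2-HG libraries 1 to 3 and at 0.108, 0.456 and 0.0879 FPKM in vehicle libraries 1 to 3. Each group held a library above 0.4 FPKM and one below 0.1 FPKM. In R-2-HG library 3, where P2rx1 was listed at 0, 1 fragment of its longest annotated transcript would be worth 0.0275 FPKM. Of the 5 platelet markers, Pf4, which macrophages also express, lay between 29.9 and 63.3 FPKM with R-2-HG and between 26.4 and 64.6 FPKM in vehicle libraries, Gp9 was listed at 0 in all 6, and Ppbp, Itga2b and Gp1bb did not exceed 0.295 FPKM. Their part in the P2rx1 values was not tested.

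The relation of the expressed channels to each other was described per library. P2rx4 exceeded P2rx7 by 3.99-, 3.01- and 3.20-fold in R-2-HG libraries 1 to 3 and by 4.08-, 3.58- and 4.31-fold in vehicle libraries 1 to 3. This ratio was 3.40 ± 0.521 in R-2-HG libraries and 3.99 ± 0.374 in vehicle libraries (SD, n = 3 each), a difference that was given no test. Within each of the 3 replicate numbers the R-2-HG library had the lower ratio, while the groups overlapped. With 3 numbers, 1 direction throughout is no rare outcome, and the ratio of P2ry6 to P2ry2 kept no single direction. P2rx4 made up between 74.6% and 79.1% of the FPKM of the 3 channels with R-2-HG and between 77.4% and 81.0% in vehicle libraries. Within each number this share was lower in the R-2-HG library. That is no separate observation, because P2rx1 did not exceed 0.456 FPKM and the share therefore largely restates the ratio.

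Among the G-protein-coupled receptors, P2ry6 was the most abundant and the highest of all 10 members by mean. P2ry6, the receptor for UDP (ENSMUSG00000048779, chromosome 7, 100937630 to 100974649, minus strand), stood at 42.5, 35.5 and 37.9 FPKM in R-2-HG libraries 1 to 3 and at 45.1, 34.2 and 39.5 FPKM in vehicle libraries 1 to 3. In both groups library 1 was the highest and library 2 the lowest. The log2 change was -0.03 (SE 0.13, 95% interval -0.33 to 0.27, limma adjusted p = 0.99998).

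P2ry2, the receptor for ATP and UTP, lies 21.9 kb from P2ry6 on the same strand with no coding gene between them (ENSMUSG00000032860, chromosome 7, 100996568 to 101012866). It stood at 7.67, 6.81 and 8.18 FPKM in R-2-HG libraries 1 to 3 and at 7.29, 7.60 and 8.96 FPKM in vehicle libraries 1 to 3. Library 3 was the highest of both groups, and the groups overlapped. The log2 change was -0.06 (SE 0.13, 95% interval -0.36 to 0.23, limma adjusted p = 0.99998). P2ry6 exceeded its neighbour P2ry2 by 4.64- to 5.55-fold in R-2-HG libraries and by 4.41- to 6.18-fold in vehicle libraries.

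P2ry12, P2ry13 and P2ry14 form a cluster on the minus strand of chromosome 3, inside the gene Med12l on the opposite strand, and all 3 were barely detected. P2ry14, the receptor for UDP-glucose (ENSMUSG00000036381, 59113855 to 59153618), was the highest of them at 0.696, 0.638 and 0.701 FPKM in R-2-HG libraries 1 to 3 and 0.605, 0.917 and 0.522 FPKM in vehicle libraries 1 to 3. The R-2-HG values lay inside the range of the vehicle values. Its longest annotated transcript has 7795 bases, so a low FPKM still stands for many fragments. If all came from that transcript, there would be 68.0 to 88.7 fragments in R-2-HG libraries and 67.5 to 111 in vehicle libraries.

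P2ry13, a receptor for ADP (ENSMUSG00000036362, 59207892 to 59210882), stood at 0.557, 0.289 and 0.486 FPKM in R-2-HG libraries 1 to 3 and at 0.376, 0.459 and 0.31 FPKM in vehicle libraries 1 to 3. Since it has a single annotated transcript, these values can be read as fragments, and at the estimated depths they came to 23, 10 and 18 fragments in R-2-HG libraries 1 to 3 and to 15, 18 and 13 in vehicle libraries 1 to 3, each no further than 0.011 from a whole number. Counts of this size allow no small difference to be detected, and the groups overlapped.

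P2ry12, a further ADP receptor, known as the target of antiplatelet drugs and as a marker of microglia (ENSMUSG00000036353, 59216272 to 59262871), was the lowest member. It stood at 0.0968, 0.173 and 0.170 FPKM in R-2-HG libraries 1 to 3 and at 0.157, 0.0729 and 0.0952 FPKM in vehicle libraries 1 to 3. An exon of P2ry12 overlaps an exon of Med12l on the opposite strand, and strand handling is not given in the sources used here, so its value is uncertain. Med12l itself was listed between 0.00769 and 0.0862 FPKM with R-2-HG and between 0.0285 and 0.0407 FPKM in vehicle libraries.

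The sums of the P2X and of the P2Y members were of like size. The 3 P2X genes summed to 41.4, 43.5 and 51.8 FPKM in R-2-HG libraries 1 to 3 and to 43.1, 47.4 and 47.5 FPKM in vehicle libraries 1 to 3. The 5 P2Y genes summed to 51.5, 43.4 and 47.5 FPKM in R-2-HG libraries 1 to 3 and to 53.5, 43.2 and 49.4 FPKM in vehicle libraries 1 to 3. Which class was higher differed between libraries of one group, and library 1 had the lowest P2X sum and the highest P2Y sum in both groups.

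The P2X share of the receptor FPKM was 44.5%, 50.1% and 52.2% in R-2-HG libraries 1 to 3 and 44.6%, 52.3% and 49.0% in vehicle libraries 1 to 3. It averaged 48.9% ± 3.94 in R-2-HG libraries and 48.6% ± 3.86 in vehicle libraries (SD, n = 3 each). The difference of 0.302 percentage points is smaller than the SD of either group, and it was given no test because it is a score over chosen genes. Its sign turned with single libraries left out, to -1.71 without vehicle library 1, -1.31 without R-2-HG library 3 and -0.276 without R-2-HG library 2, and its highest values were 2.49 without R-2-HG library 1 and 2.14 without vehicle library 2. Within the P2Y class P2ry6 made up between 79.9% and 82.5% with R-2-HG and between 79.1% and 84.2% in vehicle libraries. Each class therefore drew most of its FPKM from 1 gene.

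**Figure D2:**
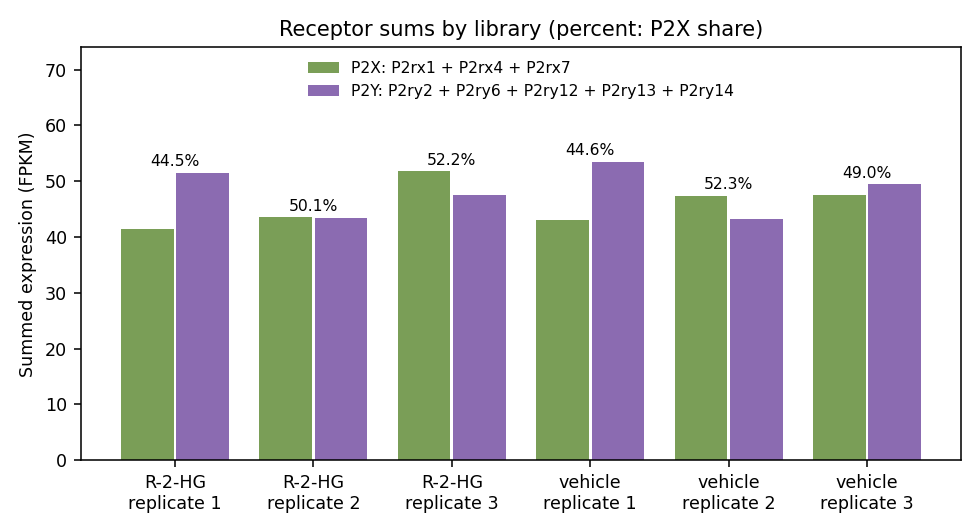
Summed FPKM of the 3 P2X genes (green) and the 5 P2Y genes (purple) in each library, R-2-HG on the left and vehicle on the right, with the P2X share in percent above each pair. The share runs from 44.5% to 52.2% in R-2-HG libraries and from 44.6% to 52.3% in vehicle libraries.

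Of the ectonucleotidases, Entpd1 was well expressed and Nt5e was barely detected. Entpd1 (ENSMUSG00000048120, chromosome 19, 40612366 to 40741602, plus strand) stood at 15.3, 18.2 and 16.9 FPKM in R-2-HG libraries 1 to 3 and at 13.7, 21.2 and 18.4 FPKM in vehicle libraries 1 to 3. All R-2-HG values lay between the lowest and the highest vehicle value, and in both groups library 1 was the lowest and library 2 the highest. The log2 change was -0.06 (SE 0.16, 95% interval -0.44 to 0.32, limma adjusted p = 0.99998).

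Nt5e (ENSMUSG00000032420, chromosome 9, 88327197 to 88372092, plus strand) stood at 0.258, 0.401 and 0.504 FPKM in R-2-HG libraries 1 to 3 and at 0.447, 0.47 and 0.222 FPKM in vehicle libraries 1 to 3. The means were 0.388 ± 0.124 FPKM in R-2-HG libraries and 0.38 ± 0.137 FPKM in vehicle libraries (SD, n = 3 each). Library 3 was the highest of the R-2-HG group and the lowest of the vehicle group. The fibroblast and mesothelial marker list, cells in which Nt5e is also known, was highest in library 1 of both groups, where Nt5e was not the highest in either, and its part in the Nt5e values was not tested.

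In order of mean FPKM over the 6 libraries the members were P2ry6, P2rx4, Entpd1, P2rx7, P2ry2, P2ry14, P2ry13, Nt5e, P2rx1 and P2ry12. The ranges over all 6 libraries did not touch between P2rx4 and Entpd1, between Entpd1 and P2rx7, or between P2ry2 and P2ry14. P2ry6 and P2rx4 overlapped, with P2ry6 the higher in 4 of 6 libraries, and so did P2rx7 and P2ry2, with P2rx7 the higher in 5 of 6. All neighbours from P2ry14 downward had overlapping ranges. The most even member over the libraries was P2rx4, whose highest value was 1.21 times its lowest, and the least even of the expressed set was Entpd1, with 1.55 times.

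The replicate number went with several members in both groups alike. Library 1 was the highest for P2ry6 and the lowest for Entpd1 and P2rx7 in either group, and library 3 was the highest for P2rx4 and P2ry2. The fibroblast gene Col1a1 also followed the number, at 29.7, 5.35 and 0.965 FPKM in R-2-HG libraries 1 to 3 and at 31.3, 10.9 and 1.46 FPKM in vehicle libraries 1 to 3. Its part in the members' values was not tested. Entpd1 had the largest SD of log2(FPKM + 1) over the 6 libraries among the tested members, 0.208, and the genes nearest to its profile were Specc1, Ikbkap and Trpm4, at root mean square distances of 0.046, 0.053 and 0.054 on the log2 scale after centring each gene.

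The rest of the purinergic system was read from fixed lists of 40 genes, of which 24 were tested and 0 passed (0% called over all genes, as above). Of the 24, 11 had a higher and 13 a lower mean with R-2-HG, with 0 at an unadjusted p under 0.05, no gene with groups apart (4.69% over all genes), and a median log2 change of -0.03 beside -0.004 over all genes tested. Their log2 changes ran from -0.50 to 0.25.

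**Figure D3:**
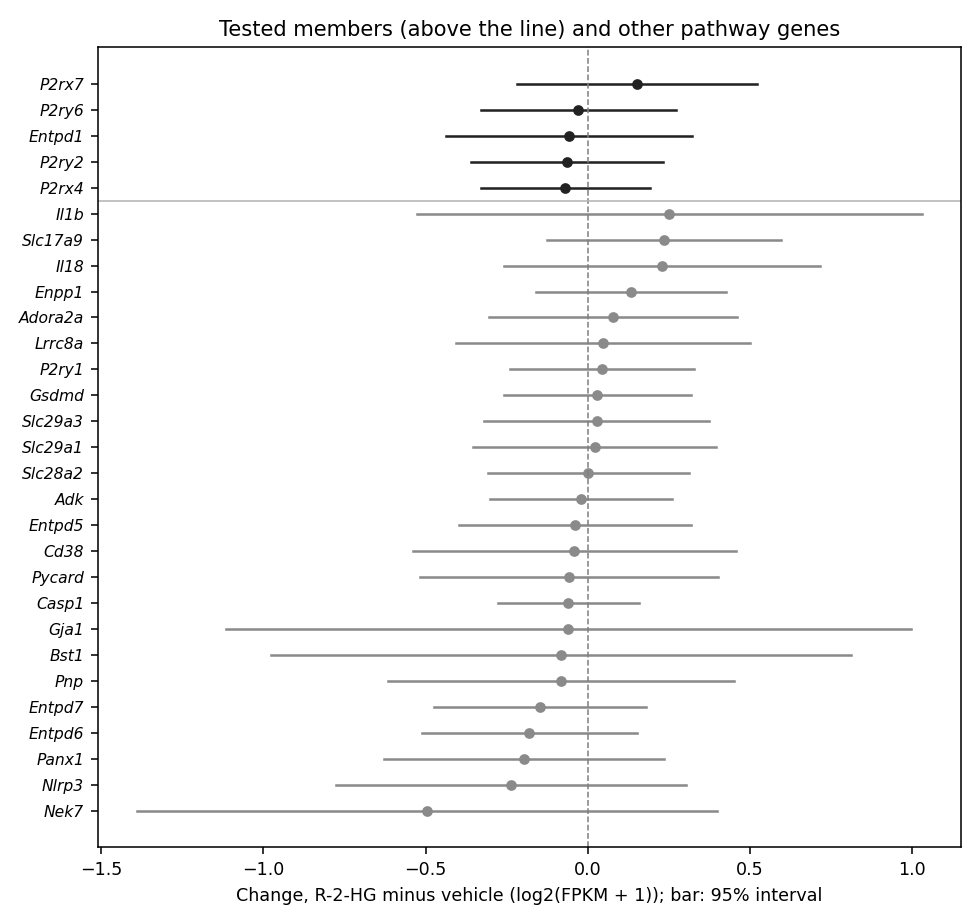
Change with R-2-HG relative to vehicle on the log2(FPKM + 1) scale, with 95% intervals from limma, for the 5 tested members (black, above the line) and the 24 other tested genes of the system (grey). Every interval spans 0, and those of the members stay between -0.44 and 0.52.

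Among the other nucleotide receptors, P2ry1, an ADP receptor, was higher than the members P2ry12, P2ry13 and P2ry14 that share its class. The members P2ry2 and P2ry6 of that class were higher than P2ry1. P2ry1 is not a member, so the P2Y sums and the P2X share above leave it out. It averaged 3.48 ± 0.0825 FPKM in R-2-HG libraries and 3.35 ± 0.326 FPKM in vehicle libraries (SD, n = 3 each). P2ry4, a UTP receptor, was listed at 0 in all 6 libraries, as was the channel gene P2rx2. The channel genes P2rx5 and P2rx6 were the highest of their list and stayed at or below 0.0862 FPKM in every library.

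Adenosine, the end product of the ectonucleotidases, acts on 4 receptors, of which Adora2a was tested. Adora2a, which raises cyclic AMP, averaged 2.31 ± 0.578 FPKM in R-2-HG libraries and 2.11 ± 0.253 FPKM in vehicle libraries (log2 change 0.08, SE 0.17). Adora2b, which also raises cyclic AMP, missed the filter at 1.62, 1.47 and 0.333 FPKM in R-2-HG libraries 1 to 3 and 1.48, 0.525 and 0.359 FPKM in vehicle libraries 1 to 3. Library 3 was the lowest in both groups. Adora3 averaged 0.268 ± 0.157 FPKM in R-2-HG libraries and 0.305 ± 0.0975 FPKM in vehicle libraries, and Adora1 reached at most 0.0105 FPKM in R-2-HG libraries and was listed at 0 in all vehicle libraries.

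Other enzymes that act on extracellular nucleotides and NAD numbered 8, of which 3 were tested, 1 higher and 2 lower by mean. Bst1, an ADP-ribosyl cyclase, averaged 23.9 ± 9.64 FPKM in R-2-HG libraries and 25.9 ± 13.03 FPKM in vehicle libraries, and Enpp1, which cleaves ATP to AMP and pyrophosphate, 4.88 ± 0.485 and 4.36 ± 0.339 FPKM in the same order. The Entpd family members of intracellular membranes gave 3 tested genes of 4, all 3 with a lower mean, among them Entpd5 at 2.38 ± 0.42 FPKM in R-2-HG libraries and 2.47 ± 0.374 FPKM in vehicle libraries. Entpd7 averaged 2.22 ± 0.192 FPKM in R-2-HG libraries and 2.57 ± 0.39 FPKM in vehicle libraries (log2 change -0.15, SE 0.14). Entpd4 was listed at 0 in all 6 libraries. It has a near namesake, Entpd4b, in the annotation, and a 0 in such a table can be a failed estimate.

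Adenosine uptake and breakdown had 5 tested genes of 7, 3 higher and 2 lower by mean. Slc29a3, a nucleoside carrier of lysosomal membranes, averaged 38.2 ± 3.98 FPKM in R-2-HG libraries and 37.7 ± 6.72 FPKM in vehicle libraries. Pnp, purine nucleoside phosphorylase, averaged 25.6 ± 5.16 FPKM in R-2-HG libraries and 27.6 ± 8.53 FPKM in vehicle libraries. The 4 genes of nucleotide release were all tested, 2 higher and 2 lower by mean. Lrrc8a, a subunit of volume-regulated anion channels, averaged 4.61 ± 1.39 FPKM in R-2-HG libraries and 4.33 ± 0.396 FPKM in vehicle libraries, and the ATP-permeable channel gene Panx1 2.33 ± 0.207 and 2.88 ± 0.849 FPKM in the same order.

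The inflammasome genes downstream of the P2X7 channel were all 7 tested, 3 higher and 4 lower by mean, and their median log2 change was -0.06. Casp1, the protease that matures interleukin-1 beta, averaged 51.3 ± 1.91 FPKM in R-2-HG libraries and 53.5 ± 2.75 FPKM in vehicle libraries. Gsdmd, which forms the pore of pyroptosis, averaged 26.3 ± 2.66 FPKM in R-2-HG libraries and 25.7 ± 3.03 FPKM in vehicle libraries.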

How the data were processed

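Expression was measured by RNA sequencing in 6 libraries of mouse peritoneal macrophages, 3 given R-2-HG and 3 given vehicle. The authors deposited FPKM per gene and library, which were used as deposited. The submitters' processing notes list Bowtie 0.12.2, Cuffdiff, mm8 and mm10 without saying what each was used for. Annotation: not given in the sources used here; likewise the handling of strand. Gene symbols came from the table, where 27 had become dates and were restored from gene identifiers. Locations come from GENCODE M21 (GRCm38). Of the gene identifiers, 34267 were found in the list of gene names used to restore symbols.

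Genes averaging 1 FPKM or more over the 6 libraries entered limma 3.58.1 (R 4.3.3) as log2(FPKM + 1) values (trend and robust estimation, two-sided, Benjamini-Hochberg adjustment over all 9701 genes, threshold 0.05). Changes are R-2-HG minus vehicle on that scale, which understates changes of low genes. Fits were tested on simulated data. Depth was taken from the steps of 7092 genes with a single transcript over 1000 bases; of the low values in a library, 95.7% to 96.9% were less than 0.1 from a whole fragment. Symbols with several rows were represented by the row with the highest mean. Other software was matplotlib 3.10.9, numpy 2.4.6, pandas 2.3.3 and Python 3.11.15.

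The members and lists were chosen with earlier results of these data known. The text names all members, the adenosine receptors, the 2 most abundant genes of each other list, markers as needed, and the 3 genes nearest in profile to the most variable tested member. P2rx2, Entpd4 and Med12l were added once their values had been read. Titles number the replicates of either group 1 to 3. Deviations from the group means correlated across genes at 0.54, 0.37 and 0.36 for same-numbered libraries and between -0.47 and 0.05 for others. By the criterion of all same-numbered values above 0.1, the numbers were taken to pair the samples. Centring makes the deviations of a group sum to 0, which pushes the other values down, so these are no separate support. Without centring, vehicle libraries 1 and 2 were nearest to their own number (0.988 and 0.987). Vehicle library 3 was nearer to R-2-HG library 2 (0.976) than to R-2-HG library 3 (0.972). The pairing rests on the values, since the labels are silent on it, and a fit blocked on the number was run as an alternative. The main fit has no block, so its SEs also hold the variation between replicate numbers. Blocked SEs were 0.073 for P2rx4, 0.12 for P2rx7, 0.099 for P2ry2, 0.068 for P2ry6 and 0.099 for Entpd1.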

Additional observations from a re-analysis of the deposited data

How the results depend on the processing

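None of the 5 tested members was called under any of the 16 alternatives, which were another pseudocount, 2 other filters, 2 scalings, a plain variance model, each library left out, and the replicate number as a block with and without each pair. The replicate block changed no call of a member (smallest adjusted p over all genes 0.991, against 0.99998 without it), left 0 genes called and gave 329 genes at an unadjusted p under 0.05, against 140. Over all genes, leaving out 1 library gave between 0 and 1 calls (1 without R-2-HG library 1 and 1 without R-2-HG library 3), and the replicate block without both libraries of number 1, 2 or 3 gave 1, 0 and 4; no member was among them, and the cause was not tested. Of 80 recomputed log2 changes of members, 73 kept their sign. With another filter, the plain variance model or the block on all libraries, the log2 change is the main one by construction. The signs of those fits were fixed in advance and say nothing about stability. P2rx4 stayed negative (-0.16 to -0.02) and P2rx7 positive (0.02 to 0.30) throughout. With single libraries left out, Entpd1 ran from -0.22 to 0.074 (highest without vehicle library 2), P2ry2 from -0.12 to 0.016 (without vehicle library 3) and P2ry6 from -0.13 to 0.067 (without vehicle library 1), and with the replicate block and without number 2 Entpd1 stood at 0.018. The difference in P2X share ran from -1.71 to 2.49 percentage points with single libraries left out and was 0.366 after quantile normalization, 2.07 without P2rx4 and 0.274 without P2ry6. Without a filter the 5 low members had adjusted p of 0.9997 each. No member had several rows, so summing rows gave no other value. Depth limits the low members most: 1 fragment of the longest P2rx1 transcript is worth 0.0242 to 0.0294 FPKM.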
